A study of Homo sapiens with 16 samples.

Results

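Ribosome biogenesis genes encode the proteins that make ribosomal RNA and assemble it into ribosomal subunits. The 39 genes of this set were taken by symbol, and each was measured by the probe set annotated to that gene alone that had the highest mean over all 16 arrays. Of the 39, 34 could be measured this way, among 19775 genes in all. NOP56 and DKC1 share their probe sets with small RNAs hosted in their introns, BOP1 with a microRNA and PPAN with a read-through gene, and no probe set was found naming GNL3, so these 5 were not analysed here.

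All arrays carried total RNA from SW480, an established human colorectal cancer line with a truncated APC gene, grown in RPMI 1640 medium with serum, and there were 4 groups of 4 replicates lettered A to D. Control cells carried a stable empty vector and received a control siRNA, named siGFP in the titles. The siTAZ cells also had the empty vector but received an siRNA against TAZ, the product of WWTR1, which activates transcription together with TEAD proteins. The sibcat cells, again with the empty vector, received an siRNA against beta-catenin, the product of CTNNB1, which carries the Wnt signal into the nucleus. APC cells stably carried a vector for wild-type APC, part of the complex that marks beta-catenin for destruction, and received the control siRNA. Each target had 1 siRNA condition. The labels name neither the promoter that drives APC nor whether the APC cells are 1 clone, and they do not say that the biological replicates were grown apart. A p-value here therefore reflects the spread among these arrays, which may be technical. The comparisons with control ask how these genes differ in cells with less TAZ, with less beta-catenin or with added APC, and the direct comparisons ask how these states differ from each other.

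Ribosome production starts in the nucleolus, where RNA polymerase I copies the ribosomal DNA into a long precursor. Small nucleolar RNAs with their core proteins guide the chemical modification of that precursor, and separate sets of assembly factors fold and cut it into the small and the large subunit. The transcription factor MYC is a known activator of many of these genes through the E-box CACGTG, and MYC is itself a known Wnt target gene in colorectal cancer, where enlarged nucleoli are a common feature.

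The labels were checked on the targeted genes. On the log2 scale used for all levels below, WWTR1 was 10.28 ± 0.11 in control and 6.90 ± 0.15 in siTAZ cells, and CTNNB1 was 13.12 ± 0.16 in control and 10.16 ± 0.24 in sibcat cells (SD, n = 4). The brightest APC probe set was at 8.22 in control and 8.30 in APC cells and did not pass the test (limma, adjusted p = 0.709), and the sources used here do not say whether it lies within the vector's insert, so it is no check of the APC label. All 10 epithelial markers lay above the median probe set level of 5.10 in every group, with array means of 9.49 to 9.93, whereas the array means of fibroblast, endothelial and leukocyte markers lay between 4.13 and 4.72. Of these, 3 of 8 fibroblast, 2 of 7 endothelial and 2 or 3 of 7 leukocyte markers also lay above 5.10 in each group. The difference between the 3′ and 5′ probe sets of ACTB, a measure that grows as RNA degrades, was 1.90 to 2.26 on the control arrays, 2.25 to 3.09 in siTAZ, 2.07 to 2.56 in sibcat and 1.74 to 2.39 in APC cells.

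The promoters of the genes were searched for 3 short motifs. Windows of 300 bases, 250 before to 50 after the annotated start, were taken from RefSeq on GRCh38.p14 for 30 of the 34 measured genes, and both strands were read. The E-box CACGTG was found in 13 of 30, or 43.3%, against 10.9% of the 15384 tested genes with a window. The TCF core CTTTGA was found in 5 of 30, or 16.7%, against 13.9%, and the TEAD core GGAATG in 5 of 30, or 16.7%, against 15.7%. A match describes the letters in the window and does not show binding. The E-box holders were FBL, RRP9, GAR1, NOP10, UTP4, UTP20, WDR43, NAT10, PES1, NOP2, MRTO4, DDX21 and LYAR. Below are the promoters of the 3 holders with the largest called decrease in sibcat cells, picked after the values were seen, 5′ to 3′ on the gene's own strand with the E-box in capitals.
LYAR (GRCh38.p14 chr4:4289972-4290271, minus strand, E-box beginning 64 bases before the start): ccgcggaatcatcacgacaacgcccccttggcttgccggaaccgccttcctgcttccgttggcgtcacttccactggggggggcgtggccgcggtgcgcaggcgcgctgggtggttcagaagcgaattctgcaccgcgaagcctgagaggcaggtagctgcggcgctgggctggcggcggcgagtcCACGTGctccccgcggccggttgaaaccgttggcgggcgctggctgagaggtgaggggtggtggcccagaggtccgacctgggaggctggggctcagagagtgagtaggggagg
WDR43 (GRCh38.p14 chr2:28894417-28894716, plus strand, E-box beginning 3 bases after the start): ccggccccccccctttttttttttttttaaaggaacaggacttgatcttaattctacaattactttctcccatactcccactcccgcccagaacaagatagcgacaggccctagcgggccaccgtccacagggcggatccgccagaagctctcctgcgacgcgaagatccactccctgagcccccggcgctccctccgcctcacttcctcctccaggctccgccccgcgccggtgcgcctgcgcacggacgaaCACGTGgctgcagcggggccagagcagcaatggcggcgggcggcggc
MRTO4 (GRCh38.p14 chr1:19251555-19251854, plus strand, E-box beginning 14 bases after the start): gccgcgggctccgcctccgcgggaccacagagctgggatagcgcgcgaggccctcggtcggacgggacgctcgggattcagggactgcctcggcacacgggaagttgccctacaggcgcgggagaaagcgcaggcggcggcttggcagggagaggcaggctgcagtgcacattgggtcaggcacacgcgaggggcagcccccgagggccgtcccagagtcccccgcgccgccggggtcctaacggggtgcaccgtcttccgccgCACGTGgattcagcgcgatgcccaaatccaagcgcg
LYAR has a further window in the table. Guanine and cytosine made up 69.7% of the LYAR window, 64.0% of the WDR43 window and 72.0% of the MRTO4 window.

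Most of the 34 genes were lowest in sibcat cells and highest in APC cells. In sibcat cells 29 of 34 fell and 2 rose against control (limma on all genes, Benjamini-Hochberg adjusted p under 0.05). Of all 19775 genes, 17.3% fell and 18.6% rose, 35.9% in all. In such bulk samples, fewer cells expressing a gene and less of its RNA per cell cannot be told apart. The median log2 difference of the 34 genes was -0.40, against 0 over all genes. In APC cells 17 rose and 0 fell, and 0 fell at an unadjusted p under 0.05 as well, with a median of 0.18. The background for APC was 16.6% higher and 17.1% lower, 33.7% in all, with a median of 0.01. In siTAZ cells 11 fell and 2 rose, with a median of -0.06, where 13.1% of all genes fell and 17.0% rose, 30.1% in all, with a median of 0.02. The median level of the 34 genes was 9.52, against 6.26 over all genes, so these backgrounds include many dimmer genes. Shares among genes of like level were not computed.

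Groups of 4 arrays did not overlap with control, on the lower side, for 28 of 34 genes in sibcat cells and 13 in siTAZ cells, against 15.8% and 12.7% of all genes. On the higher side they did not overlap for 2 genes each in sibcat and siTAZ cells, against 17.8% and 16.9%, and for 15 in APC cells, against 16.0%, where 15.7% of all genes but 0 of the 34 were lower without overlap.

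The separation was visible on every array. For each array, the median over the 34 genes of the deviation from the gene's own mean across all 16 arrays was 0.03 to 0.13 on the control arrays and -0.04 to 0.01 on the siTAZ arrays. It was -0.36 to -0.28 on the sibcat arrays and 0.23 to 0.34 on the APC arrays. The groups did not overlap in this measure. By group means, 28 of the 34 genes were lowest in sibcat cells, 4 in siTAZ and 2 in control cells, and 27 were highest in APC cells, 4 in siTAZ and 3 in control cells. The full order sibcat, siTAZ, control, APC from low to high was seen for 20 genes. Within a group the SD of a gene had a median of 0.07 and a largest value of 0.37, for NIP7 in control cells. The median SD is below the size of the median differences in sibcat (-0.40) and APC cells (0.18). It is not below that in siTAZ cells (-0.06), and the largest SD exceeds the APC median. These are medians over genes and do not compare difference and spread gene by gene. Between siTAZ and control cells 21 of the 34 genes did not pass the test.

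**Figure D1:**
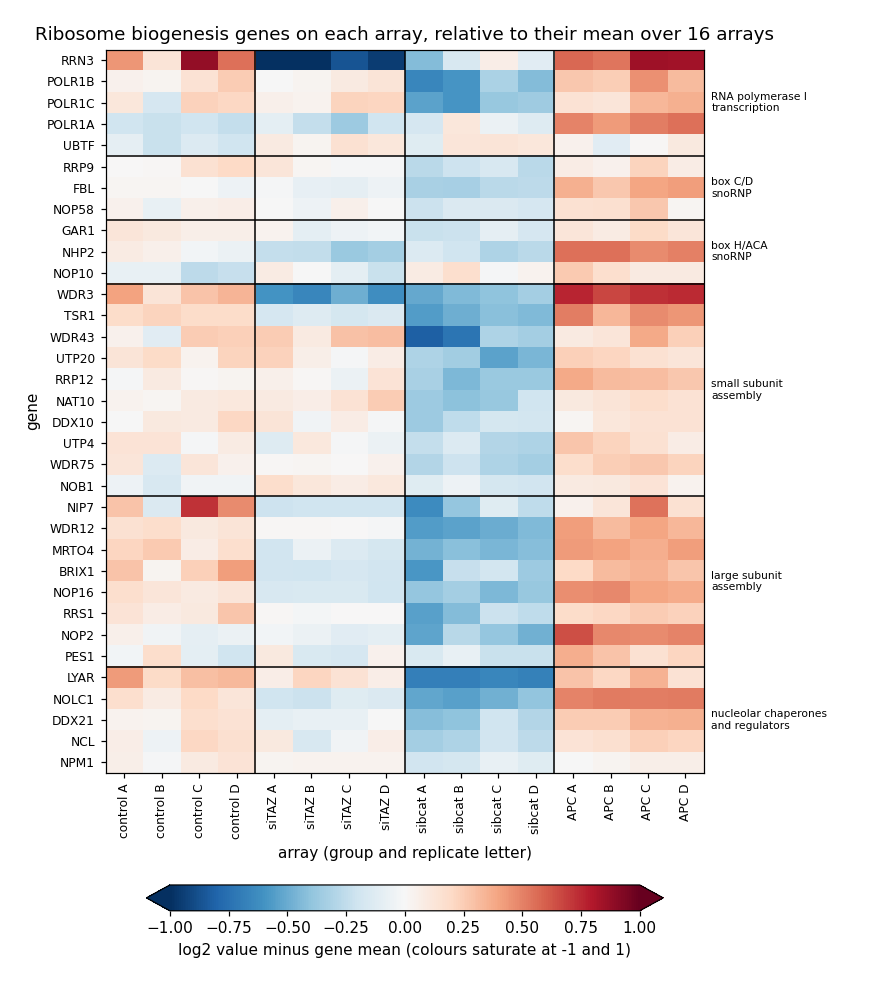
Level of each measured gene on each array as a log2 deviation from the gene's mean over all 16 arrays, genes grouped by role (rows) and arrays by group (columns). Most rows are low on the sibcat arrays and high on the APC arrays, and RRN3 and WDR3 are lowest on the siTAZ arrays.

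The RNA polymerase I genes did not move as a block. RRN3 encodes the factor that makes the polymerase able to start at a ribosomal DNA promoter. It was at 9.07, 8.76, 9.51 and 9.18 on control arrays A to D and at 7.45, 7.48, 7.77 and 7.68 on the siTAZ arrays. It was at 8.20, 8.47, 8.70 and 8.52 on the sibcat arrays and at 9.21, 9.17, 9.48 and 9.47 on the APC arrays. All siTAZ arrays lay below all sibcat arrays, which lay below all control arrays, while the APC and control arrays overlapped. RRN3 fell by 1.53 in siTAZ cells (SE 0.14, adjusted p = 2.50e-07), to 34.5% of control, the largest difference among the 34 genes in any comparison with control. In sibcat cells it fell by 0.66 (adjusted p = 0.00110). RRN3 has a single usable probe set and 4 annotated pseudogenes, RRN3P1 to RRN3P4, whose transcripts could share its signal, so its values are uncertain in that respect.

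POLR1A, the largest and catalytic subunit of the polymerase, set APC cells apart. Its levels were 7.25, 7.22, 7.25 and 7.21 on the control arrays and 7.94, 7.87, 7.96 and 8.0 on the APC arrays. The siTAZ arrays stood at 7.35, 7.21, 7.08 and 7.25 and the sibcat arrays at 7.28, 7.56, 7.39 and 7.32. No APC array overlapped any other group. POLR1A rose by 0.71 in APC cells (SE 0.07, adjusted p = 1.82e-07), a 1.64-fold difference, and its other probe sets gave 0.28 and 0.29 there. It differed by -0.01 in siTAZ and 0.15 in sibcat cells, neither past the test. All sibcat arrays lay above all control arrays, and the sibcat difference was called without sibcat A. The other POLR1A probe sets gave -0.19 and -0.05 in sibcat cells, not past the test, so its direction there is not settled.

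POLR1B, the second subunit of the catalytic core, fell by 0.62 in sibcat cells, and POLR1C, a subunit shared with RNA polymerase III, fell by 0.56. The other POLR1B probe sets gave -0.28, -0.39 and -0.03 in sibcat cells, the last not past the test. Neither POLR1B nor POLR1C passed the test in siTAZ cells (-0.06 and 0.04) or APC cells (0.20 and 0.14). In APC cells POLR1B lay close to the threshold (limma, adjusted p = 0.0515) and was called without control D (0.25). POLR1C was called there with the mean of its probe sets (0.19), and both were called with the replicate letters as a block (0.20 and 0.14). UBTF, which binds ribosomal DNA and opens it for transcription, went the other way. Its levels were 7.05, 6.92, 7.0 and 6.94 in control, 7.23, 7.17, 7.29 and 7.25 in siTAZ, 7.02, 7.26, 7.27 and 7.25 in sibcat, and 7.18, 7.03, 7.15 and 7.24 in APC cells. Only the siTAZ arrays all lay above every control array. UBTF rose by 0.26, 0.22 and 0.17 in siTAZ, sibcat and APC cells (adjusted p = 0.00466, 0.0105 and 0.0459). Its probe sets disagreed: 2 others fell in siTAZ cells, by 0.64 and 0.38, and the mean over all its probe sets gave -0.19, so no direction is settled for the UBTF gene. The call in APC cells was lost without any of control B, C or D or APC A, C or D, with values of 0.14 to 0.18.

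Among the box C/D proteins, which guide 2′-O-methylation of ribosomal RNA, all 3 measured genes fell in sibcat cells, against 17.3% of all genes. FBL, the methyltransferase of the particle, was at 12.20, 12.20, 12.18 and 12.13 on the control arrays and 12.17, 12.10, 12.09 and 12.13 on the siTAZ arrays. It was at 11.86, 11.85, 11.91 and 11.92 on the sibcat arrays and 12.54, 12.45, 12.58 and 12.60 on the APC arrays. The sibcat arrays lay below and the APC arrays above all arrays of the other groups. The sibcat value of FBL fell by 0.29 (adjusted p = 6.98e-05), and the APC value was higher by 0.36 (adjusted p = 7.03e-06). NOP58, a scaffold of the same particle, fell by 0.19 in sibcat cells and was at 0.13 in APC cells, not past the test. RRP9, a protein of the U3 particle and the dimmest of the 34 probe sets, was at 6.55, 6.56, 6.70 and 6.75 in control, 6.67, 6.57, 6.54 and 6.54 in siTAZ, 6.28, 6.34, 6.39 and 6.28 in sibcat, and 6.62, 6.59, 6.77 and 6.62 in APC cells. Its sibcat arrays lay below all others, and it fell there by 0.32 (adjusted p = 3.91e-04). None of these 3 genes was called in siTAZ cells, where they differed by -0.06, -0.02 and -0.06.

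The box H/ACA proteins, which with dyskerin convert uridine to pseudouridine and stabilise telomerase RNA, split in direction. NHP2 was at 11.89, 11.86, 11.78 and 11.75 in control, 11.57, 11.56, 11.44 and 11.47 in siTAZ, 11.67, 11.61, 11.50 and 11.54 in sibcat, and 12.36, 12.36, 12.28 and 12.31 in APC cells. Both siRNA groups lay below control and APC cells above it with no overlap. In siTAZ cells NHP2 fell by 0.31 (adjusted p = 2.30e-04), in sibcat cells it fell by 0.24 (adjusted p = 0.00168), and in APC cells it rose by 0.51 (adjusted p = 8.71e-07). NOP10, the smallest core protein of the particle, rose in sibcat as well as APC cells. Its levels were 11.23, 11.23, 11.04 and 11.07 in control, 11.38, 11.30, 11.20 and 11.08 in siTAZ, 11.38, 11.47, 11.29 and 11.34 in sibcat, and 11.56, 11.47, 11.39 and 11.39 in APC cells. The sibcat and APC arrays all lay above the control arrays. The differences were 0.23 in sibcat (adjusted p = 0.0188) and 0.31 in APC cells (adjusted p = 0.00243). The sibcat call of NOP10 was lost without control C (0.19), control D (0.20) or sibcat B (0.19). GAR1, the remaining core protein, fell by 0.26 in sibcat cells and differed by -0.12 and 0.04 in siTAZ and APC cells, not past the test.

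Of 10 small subunit assembly genes, 9 fell in sibcat cells with a median of -0.40, against 17.3% of all genes. In APC cells 5 rose, against 16.6% of all genes. In siTAZ cells 2 fell and 1 rose, or 20% and 10%, near or below the 13.1% and 17.0% of all genes. WDR3, a component of the early small subunit precursor, fell with both siRNAs. Its levels were 9.15, 8.88, 9.04 and 9.09 in control, 8.15, 8.10, 8.26 and 8.13 in siTAZ, 8.24, 8.31, 8.35 and 8.41 in sibcat, and 9.51, 9.42, 9.48 and 9.50 in APC cells. The control arrays stood clear of all other groups on both sides. WDR3 fell by 0.88 in siTAZ cells (SE 0.06, adjusted p = 1.08e-08), to 54.3% of control, and by 0.71 in sibcat cells (adjusted p = 6.85e-08), to 61.0%. It rose by 0.44 in APC cells (adjusted p = 2.10e-05). The other WDR3 probe set had a mean level of only 2.80, well under the median probe set, and gave 0.01 in sibcat cells.

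TSR1, which resembles a GTPase and caps the late small subunit precursor, was at 10.07, 10.11, 10.07 and 10.07 in control, 9.72, 9.76, 9.71 and 9.74 in siTAZ, 9.33, 9.40, 9.47 and 9.45 in sibcat, and 10.40, 10.22, 10.36 and 10.33 in APC cells. No 2 groups overlapped. It fell by 0.35 in siTAZ and 0.67 in sibcat cells and rose by 0.25 in APC cells (adjusted p = 3.03e-05, 9.97e-09 and 6.53e-04). Another TSR1 probe set went the other way in siTAZ (0.23) and APC cells (-0.22) and gave -0.0075 in sibcat cells. The remaining TSR1 probe sets gave -0.66 and -0.15 in sibcat cells, and neither the -0.0075 nor the -0.15 passed the test there. They gave -0.285 and 0.17 in siTAZ and -0.0075 and 0.18 in APC cells, none past the test. The sibcat call of TSR1 was lost with only probe sets of no _x, _s or _a suffix (-0.15). Its siTAZ and APC calls were lost in that setting and with the mean of its probe sets. The APC call was also lost with replicates A and B alone. No direction is therefore settled for the TSR1 gene in siTAZ or APC cells. WDR43, part of the complex that links transcription of the precursor to its processing, was at 9.32, 9.17, 9.53 and 9.52 in control and 8.46, 8.55, 8.97 and 8.94 in sibcat cells. It stood at 9.53, 9.37, 9.57 and 9.59 in siTAZ and 9.37, 9.40, 9.66 and 9.52 in APC cells. All sibcat arrays lay below all others, and WDR43, whose E-box is printed above, fell by 0.66 there (adjusted p = 2.11e-04) and did not pass the test in siTAZ (0.13) or APC cells (0.10).

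The other factors of the early precursor followed WDR43 in sibcat cells with smaller differences. UTP20, a large scaffold, fell by 0.56, UTP4 and WDR75 of the same complex as WDR43 by 0.33 each, and the helicase DDX10 by 0.34. RRP12, an export and processing factor, fell by 0.41, and NAT10, which acetylates cytidine in the small subunit RNA, by 0.40. None of these 6 was called in siTAZ cells, where they ranged from -0.11 to 0.08. In APC cells RRP12 rose by 0.29 and WDR75 by 0.19, and the other 4 lay between 0.01 and 0.10 without a call. NOB1, the nuclease that makes the final cut at the end of the small subunit RNA, was the exception. It was at 9.27, 9.16, 9.29 and 9.29 in control, 9.50, 9.44, 9.40 and 9.43 in siTAZ, 9.20, 9.27, 9.15 and 9.13 in sibcat, and 9.41, 9.42, 9.46 and 9.36 in APC cells. The siTAZ and APC arrays lay above all control arrays, and the sibcat arrays overlapped them. In siTAZ cells NOB1 rose by 0.19 (adjusted p = 0.00657), in APC cells it rose by 0.16 (adjusted p = 0.0179), and it was at -0.07 in sibcat cells (adjusted p = 0.363). The APC call was lost without control B (0.13) or APC C (0.14), and the siTAZ call with the ACTB difference as a covariate (0.14).

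**Figure D2:**
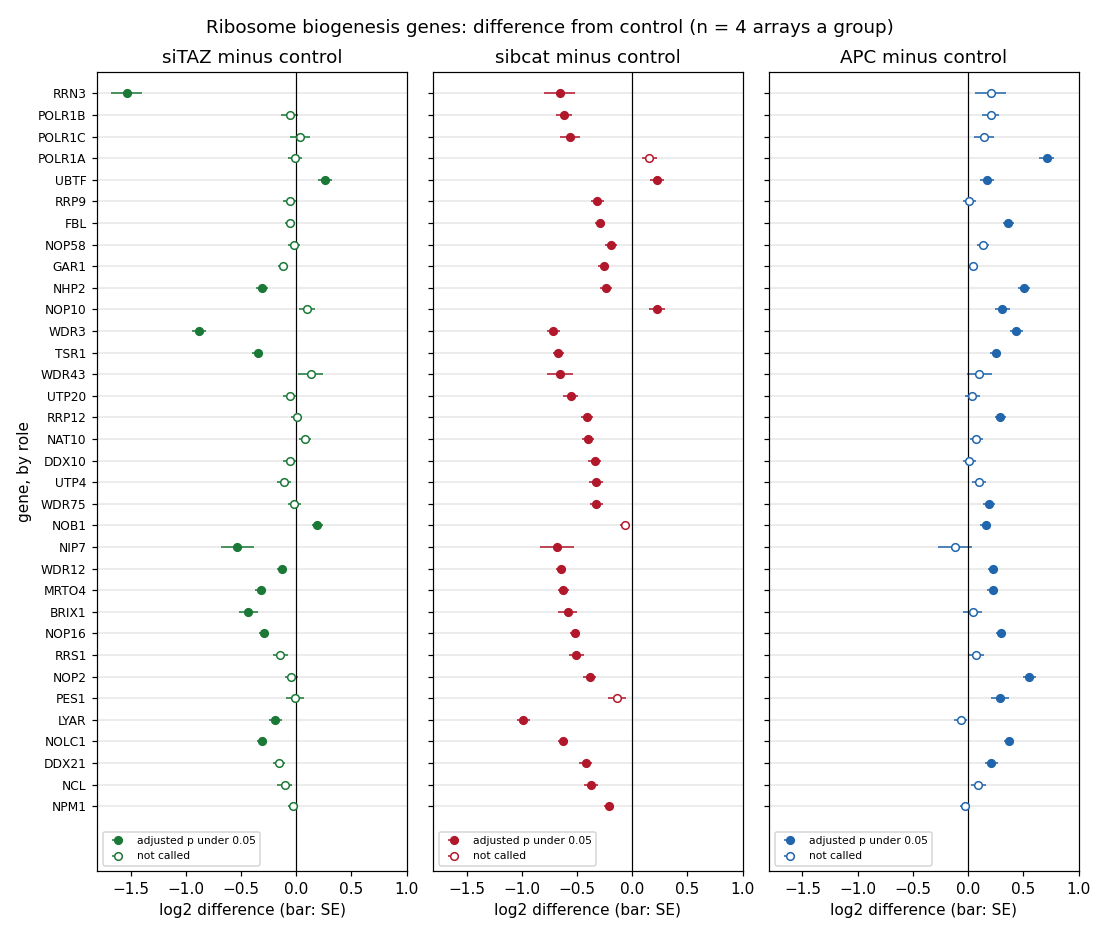
Log2 difference from control (horizontal axis, bar: SE) of the 34 measured genes in siTAZ, sibcat and APC cells, n = 4 arrays a group, filled where the adjusted p was under 0.05. In sibcat cells 29 filled points lie left of 0, whereas in siTAZ cells 11 do and RRN3 and WDR3 lie farthest left.

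Large subunit assembly held the largest share of siTAZ decreases by role, 5 of 8 genes, against 13.1% of all genes. Of these 5 siTAZ calls only that of MRTO4 held in all 20 alternative fits, and that of WDR12 held in 7. In sibcat cells 7 of 8 fell, against 17.3% of all genes, and in APC cells 5 of 8 rose, against 16.6%. NIP7, which binds precursor RNA during large subunit maturation, was at 9.13, 8.70, 9.57 and 9.32 in control, between 8.64 and 8.65 on all siTAZ arrays, at 8.22, 8.46, 8.73 and 8.59 in sibcat, and at 8.89, 8.97, 9.39 and 9.0 in APC cells. Its control arrays were the most spread of any member, and control B lay within the sibcat range. NIP7 fell by 0.53 in siTAZ (SE 0.15, adjusted p = 0.0128) and, in sibcat cells, by 0.68 (adjusted p = 0.00180), and was at -0.12 in APC cells (adjusted p = 0.624). Without control C, the siTAZ value was -0.40 and no longer called.

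NOP2, a methyltransferase of the large subunit RNA, rose with APC. It was at 8.52, 8.43, 8.38 and 8.41 in control, 8.44, 8.41, 8.35 and 8.37 in siTAZ, 7.94, 8.19, 8.08 and 7.99 in sibcat, and 9.11, 8.95, 8.94 and 8.96 in APC cells. The APC arrays lay above and the sibcat arrays below all others. The difference was 0.56 in APC cells (adjusted p = 1.22e-06) and NOP2 fell by 0.39 in sibcat cells (adjusted p = 6.38e-05), with -0.04 in siTAZ cells, not called. MRTO4, which holds the place of a stalk protein during assembly, was at 10.05, 10.10, 9.91 and 10.00 in control, 9.64, 9.78, 9.70 and 9.66 in siTAZ, 9.36, 9.42, 9.38 and 9.41 in sibcat, and 10.26, 10.24, 10.20 and 10.25 in APC cells. No 2 of its groups overlapped. MRTO4 fell by 0.32 in siTAZ and 0.62 in sibcat cells and rose by 0.22 in APC cells (adjusted p = 8.65e-05, 3.03e-08 and 0.00195).

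PES1 and WDR12 form a complex with BOP1 that large subunit precursors need for cutting. WDR12 fell by 0.65 in sibcat cells and rose by 0.23 in APC cells, whereas PES1 was at -0.14 in sibcat cells, not called, and rose by 0.29 in APC cells. WDR12 also fell by 0.13 in siTAZ cells, a call lost without control A, B or D or siTAZ B, C or D, with values of -0.12 to -0.14, and PES1 was at -0.01 there. BRIX1, an assembly factor of the large subunit, fell by 0.43 in siTAZ and 0.58 in sibcat cells and was at 0.04 in APC cells. NOP16 fell by 0.29 and 0.52 and rose by 0.30 in the same order. Its next brightest probe set gave -0.42 and -0.62 in siTAZ and sibcat cells, but 0.04 in APC cells, not past the test. The siTAZ call of NOP16 was lost with the mean of its probe sets (-0.12). RRS1, which helps to load the shortest ribosomal RNA into the large subunit, fell by 0.51 in sibcat cells and did not pass the test in siTAZ (-0.14) or APC cells (0.07).

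All 5 nucleolar chaperones and regulators fell in sibcat cells, against 17.3% of all genes. In siTAZ cells 2 fell, or 40%, against 13.1%, and in APC cells 2 rose, or 40%, against 16.6%. LYAR, a nucleolar zinc finger protein of growing cells, showed the largest sibcat difference of the 34 genes. Its levels were 10.62, 10.39, 10.50 and 10.52 in control, 10.26, 10.41, 10.34 and 10.26 in siTAZ, 9.51, 9.51, 9.54 and 9.52 in sibcat, and 10.48, 10.40, 10.54 and 10.34 in APC cells. The sibcat arrays lay far below the rest. LYAR fell by 0.99 in sibcat cells (SE 0.06, adjusted p = 7.88e-10), to 50.4% of control. It fell by 0.19 in siTAZ cells (adjusted p = 0.0202), a call lost without control A (-0.15), siTAZ A (-0.17) or siTAZ D (-0.17), and was at -0.07 in APC cells (adjusted p = 0.433).

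NOLC1, a chaperone that shuttles snoRNPs between nucleolus and Cajal bodies, separated all 4 groups. It was at 11.44, 11.35, 11.47 and 11.39 in control, 11.07, 11.06, 11.15 and 11.13 in siTAZ, 10.75, 10.73, 10.79 and 10.88 in sibcat, and 11.77, 11.79, 11.78 and 11.79 in APC cells. No 2 groups overlapped, and NOLC1 fell by 0.31 in siTAZ and 0.62 in sibcat cells and rose by 0.37 in APC cells (adjusted p = 7.10e-05, 1.55e-08 and 8.20e-06). The helicase DDX21 fell by 0.42 and NCL, nucleolin, by 0.37 in sibcat cells, and DDX21 rose by 0.21 in APC cells. NPM1, nucleophosmin, a histone and ribosomal protein chaperone, had the brightest probe set, at 13.83, 13.76, 13.86 and 13.91 in control, 13.80 to 13.81 in siTAZ, 13.58, 13.60, 13.70 and 13.65 in sibcat, and 13.77, 13.80, 13.83 and 13.83 in APC cells. The sibcat arrays lay below all others, and NPM1 fell there by 0.21 (adjusted p = 0.00155). Its other probe sets gave -0.38 and -1.0 in siTAZ cells against -0.03 for the brightest, and NPM1 has 50 annotated pseudogene symbols, so its values are uncertain.

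**Figure D3:**
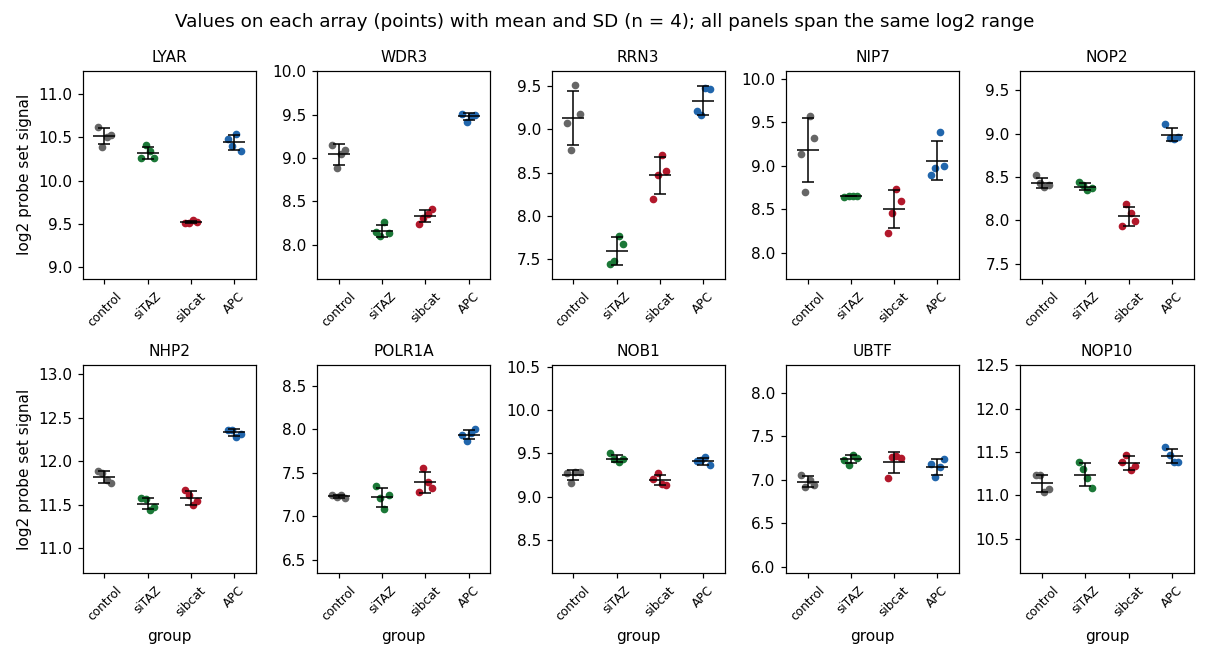
Log2 probe set signal (vertical axis, same span in every panel) of 10 genes on each array, with points for the 4 arrays of a group and bars for mean and SD (n = 4). LYAR is lowest on the sibcat arrays, at 9.51 to 9.54, RRN3 on the siTAZ arrays, at 7.45 to 7.77, and POLR1A is highest on the APC arrays, at 7.87 to 8.0.

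The direct comparisons set the 3 states against each other without the control means, though the control arrays entered the fit's estimate of the spread. Against sibcat cells, siTAZ cells were higher for 25 of 34 genes and lower for 2, with a median of 0.26, where 18.9% of all genes were higher and 17.8% lower, 36.7% in all. The 2 lower genes were RRN3 (-0.88) and WDR3 (-0.17, adjusted p = 0.040), and UBTF, POLR1A, NHP2, NOP10, BRIX1, NIP7 and PES1 were not called. Against sibcat cells, APC cells were higher for 32 of 34 and lower for 0, at an unadjusted p under 0.05 as well (limma), with a median of 0.61, where 20.3% of all genes were higher and 21.7% lower, 42.0% in all. WDR3 (1.15), NOLC1 (0.99), NOP2 (0.94), TSR1 (0.92) and LYAR (0.92) differed most, and NOP10 (0.08) and UBTF (-0.05) were not called. Compared with APC cells, siTAZ cells were lower for 24 of 34, with a median of -0.24, and higher for 0, at an unadjusted p under 0.05 as well (limma). Of all genes 19.9% were lower and 22.4% higher, 42.4% in all. RRN3 (-1.74), WDR3 (-1.32) and NHP2 (-0.82) differed most. The genes not called between siTAZ and APC cells were POLR1C, UBTF, RRP9, LYAR, NPM1, DDX10, NAT10, NOB1, UTP20 and WDR43.

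The promoter windows can be set beside the calls in APC cells, for the 15 genes with a window that rose and the 15 that were not called. The E-box was in 6 and 7 of them, the TCF core in 4 and 1, and the TEAD core in 2 and 3, respectively.

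MYC itself rose by 0.24 in siTAZ cells (adjusted p = 0.00800), fell in sibcat cells, by 0.59 (adjusted p = 8.85e-07), and was at 0.005 in APC cells (adjusted p = 0.966). Of 10 measured MYC family genes, 5 rose and 1 fell in siTAZ cells, where 17.0% and 13.1% of all genes did so. The lower gene was MYCL (-1.11), and MAX (0.58), the partner of MYC, and MNT (0.42) rose most. In sibcat cells 3 rose and 1 fell, against 18.6% and 17.3% of all genes, with MXI1 (0.53) and MXD1 (0.43), which compete with MYC for MAX, rising most. In APC cells MLX rose (0.17) and MAX (-0.17) and MXI1 (-0.17) fell, counts near the 16.6% and 17.1% of all genes.

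Most of the other genes of the pathway also fell in sibcat cells. Of 139 further biogenesis genes in 5 lists, 108 fell, or 77.7%, and 3 rose, or 2.2%, with a median of -0.32, against 17.3% and 18.6% of all genes. The median level of these 139 genes was 8.89, against 6.26 over all genes. In siTAZ cells 49 fell, or 35.3%, against 13.1% of all genes, and 21 rose, or 15.1%, near the 17.0% of all genes. In APC cells 47 rose, or 33.8%, against 16.6%, and 13 fell, or 9.4%, against 17.1%.

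Of 10 other RNA polymerase I machinery genes, 8 fell in sibcat cells, or 80%, against 17.3% of all genes. TAF1A (-0.72) and TAF1D (-0.51), both subunits of the promoter selectivity factor, fell most. In siTAZ cells the polymerase subunit POLR1E (-0.45) and TAF1B (-0.42) fell most, and POLR1D, a shared polymerase subunit (0.78), and the terminator protein TTF1 (0.17) rose. TAF1D rose by 0.68 in APC cells and the polymerase subunit POLR1G by 0.26. Of 44 other small subunit genes, 34 fell in sibcat cells, or 77.3%, against 17.3%, with UTP15 at -0.97 and AATF at -0.88. In siTAZ cells WDR36 (-0.57) and NOL10 (-0.46) fell most, and UTP3 (0.47) and the helicase DDX52 (0.44) rose most. In APC cells EMG1, an rRNA methyltransferase, rose by 0.68 and UTP6 by 0.60, and UTP14A fell by 0.53 and NGDN by 0.42.

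Of 50 other large subunit genes, 39 fell in sibcat cells, or 78%, against 17.3% of all genes. MAK16 was at 8.68 in control and 6.76 in sibcat cells, a fall of 1.92 (adjusted p = 5.15e-14), and the assembly ATPase NVL fell by 1.31. NMD3, the export adaptor of the large subunit, fell by 0.79 in siTAZ cells and RRP1B by 0.73. The assembly ATPase MDN1 rose in both sibcat (0.25) and APC cells (0.60), where BCCIP rose by 0.69, and the helicase DDX24 rose by 0.17 in sibcat cells. URB1 rose by 0.51 in siTAZ and fell by 0.65 in APC cells, and EFL1, a GTPase of late maturation, rose by 0.49 and fell by 0.23 in the same groups.

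Of 12 snoRNP assembly genes, 10 fell in sibcat cells, or 83.3%, against 17.3% of all genes. NAF1, an assembly factor of H/ACA particles, was at -0.76 and TCOF1 at -0.74. COIL, the marker protein of Cajal bodies, rose by 0.28 in sibcat cells. In siTAZ cells the ATPase RUVBL1 fell by 0.26, and PIH1D1 and the core protein SNU13 rose by 0.31 and 0.18. In APC cells RPAP3, a chaperone adaptor, fell by 0.83 and ZNHIT3 by 0.48, and RUVBL2 and COIL rose by 0.27 each. Of 23 exosome and nuclease genes, 14 fell in siTAZ cells, or 60.9%, against 13.1% of all genes. In sibcat cells 17 fell, or 73.9%, against 17.3% of all genes. The exosome cofactor C1D fell by 1.66 and the exosome subunit EXOSC2 by 0.77 in sibcat cells. In siTAZ cells POP5, a subunit of RNase P and RNase MRP, fell by 0.61 and EXOSC2 by 0.46, and the exosome nuclease DIS3 rose by 0.25. In APC cells POP1 and EXOSC5 rose by 0.57 and 0.50, and EXOSC7 and EXOSC6 fell by 0.29 and 0.28.

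The ribosomal proteins themselves moved less. Of 53 measured cytosolic ribosomal protein genes, whose probe sets had a median level of 13.7, 14 fell in sibcat cells, or 26.4%, against 17.3% of all genes, with a median of -0.06. RPL36 (-0.23) and RPL10A (-0.18) fell most there. In siTAZ cells 3 fell and 1 rose, or 5.7% and 1.9%, below the 13.1% and 17.0% of all genes, with RPL37 (-0.49), FAU (-0.15) and RPL36A (0.32) named by size. In APC cells 8 rose, or 15.1%, near the 16.6% of all genes, and 3 fell, or 5.7%, with RPL38 (0.29) and FAU (0.23) highest and RPL29 (-0.32) and RPS25 (-0.26) lowest. The medians were -0.02 in siTAZ and 0.02 in APC cells. Probe sets this bright may be near saturation, which was not tested.

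Of 19 mitochondrial ribosome assembly genes, 8 fell in sibcat cells, or 42.1%, against 17.3% of all genes, with MPV17L2 (-0.51) and the methyltransferase NSUN4 (-0.45) lowest. In siTAZ cells 3 fell and 2 rose, or 15.8% and 10.5%, near or below the background of 13.1% and 17.0%. MALSU1 (-0.50) and FASTKD2 (-0.34) fell most, and RPUSD4 (0.28) and NOA1 (0.16) rose. In APC cells 6 rose, or 31.6%, against 16.6%, with NSUN4 (0.40) and MTG1 (0.35) highest, and 4 fell, or 21.1%, near 17.1%, with MRM2 (-0.57) and the helicase DHX30 (-0.30) lowest.

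**Figure D4:**
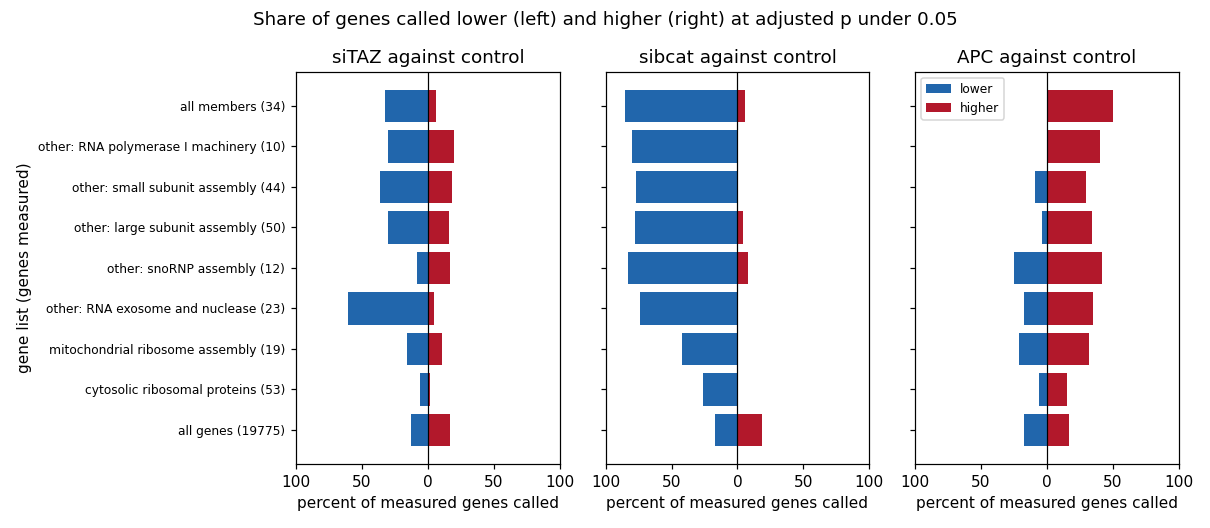
Percent of measured genes called lower (left of 0) and higher (right of 0) against control at adjusted p under 0.05, for the 34 ribosome biogenesis genes, other lists and all 19775 genes. In sibcat cells 85.3% of the 34 genes and 26.4% of the cytosolic ribosomal protein genes fell, against 17.3% of all genes.

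On siTAZ arrays the larger ACTB difference ran beside the decreases. Its mean was also larger in sibcat (2.30) than in control cells (2.05). The like difference of GAPDH was 0.40 to 0.65 on the siTAZ arrays, 0.27 to 0.42 on the control and 0.26 to 0.40 on the sibcat arrays. With the ACTB difference as a covariate 8 genes fell in siTAZ cells, and the calls of WDR12, NIP7 and LYAR and the increase of NOB1 were lost. In the same fit 29 fell in sibcat and 18 rose in APC cells. The share of all genes called in that fit was not computed. The arrays were brought to like distributions by the deposited processing, so a shift in the RNA content of the cells is not visible here.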

How the data were processed

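RNA from 16 SW480 samples was measured on Affymetrix U133 Plus 2.0 arrays. The authors deposited log2 levels per probe set made with RMA, per the submitters' processing notes, which corrects background, quantile-normalises and summarises probes. Its version and the log base are not given in the sources used here, and the base was read from the values. An array signal has no count behind it, so the number of arrays limits precision. Of 54675 probe sets, 41097 were paired with 1 gene, and 19775 genes were each represented by the brightest. No dim genes were filtered.

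All arrays entered 1 model in limma 3.58.1 (R 4.3.3), tested on simulated data. A gene was called at a Benjamini-Hochberg adjusted p under 0.05 over all genes within a comparison, and adjusted p-values are from this fit. Differences are log2 and comparisons with control share their control arrays. The members and lists were chosen with earlier results of these data known. Array values are given for the 3 largest called differences per comparison, for up to 3 members called against the majority, for the brightest and dimmest member, and for FBL, TSR1, WDR43, MRTO4 and NOLC1, chosen after their values were seen. Of each other list, the 2 largest called differences per direction and comparison with control are named. Alternatives changed the block, probe set, filter, normalization, prior, samples and an RNA quality covariate. Figures were drawn with matplotlib 3.10.9.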

Additional observations from a re-analysis of the deposited data

Results flagged for a closer look

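Of 136 sets of 4 arrays, 1 per gene and group, 8 had an array set far from the others, about the number that chance gives at 1 in 20. Control B was that array for 3 genes: NOP58 (11.55 against 11.67 to 11.69), TSR1 (10.11 against 10.07) and NOB1 (9.16 against 9.27 to 9.29). UBTF stood at 7.02 on sibcat A against 7.25 to 7.27, and RRP9 at 6.77 on APC C against 6.59 to 6.62. NOP2 stood at 9.11 on APC A against 8.94 to 8.96. In siTAZ A, NIP7 stood at 8.64 against 8.65 and NPM1 at 13.80 against 13.81, which is the smallest step the deposited rounding allows.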

How the results depend on the processing

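The replicate letters were not taken as pairing. Same-lettered arrays deviated together with correlations of 0.084 to 0.403 (median 0.151), 22 of 24 over 0.1, and 9 of 16 arrays correlated best with their own letter. Arrays of other letters gave -0.465 to 0.352 (median -0.128). Across groups, A and B correlated positively, as did C and D, and every A or B array correlated negatively with every C or D array. In each group the ACTB difference was also larger on A and B than on C and D. The main fit left this shared structure out. With the replicate block, 12 genes fell and 2 rose in siTAZ, 29 fell and 2 rose in sibcat, and 19 rose in APC cells. The block added the calls of DDX21 in siTAZ (-0.155) and of POLR1B (0.20) and POLR1C (0.14) in APC cells. A block of A and B against C and D added the same calls and that of GAR1 in siTAZ cells, and no call against control was lost with it. The 2 siTAZ increases became 1 with the ACTB covariate, 1 with the mean of probe sets, 0 with replicates A and B alone and 1 with C and D alone. The last 2 settings were chosen after seeing the data. The 2 sibcat increases became 1 with the mean of probe sets, 0 with A and B alone, and 1 to 3 leaving out single arrays (1 without control C, control D or sibcat B). Only probe sets with no _x, _s or _a suffix measured 28 genes, and 4 of these fell in siTAZ, 19 fell in sibcat and 9 rose in APC cells. In siTAZ cells 4 of 28 is near the 13.1% of all genes that fell in the main fit. With the same probe sets 15 were lower in siTAZ than in APC cells. The share of all genes called was not computed for the alternative fits, so their counts stand without a background of their own. With A and B alone, 7 fell in siTAZ and 9 rose in APC cells. Leaving out single arrays gave 9 to 11 decreases in siTAZ, 29 in sibcat and 15 to 17 increases in APC cells. UBTF turned to -0.19 in siTAZ cells with the mean of probe sets. With unsuffixed probe sets, TSR1 turned to 0.17 in siTAZ, and WDR3, RRP12 and NCL to 0.0075, 0.11 and 0.13 in sibcat cells. TSR1 was at -0.15 in sibcat cells with these probe sets and no longer called. The unsuffixed probe sets of WDR3, NCL and RRP12 had mean levels of 2.80, 3.60 and 4.49, below the median probe set at 5.10. Over single genes and settings, 1860 values kept direction and call, 50 changed sign without a call in either setting, 80 lost and 27 gained a call, and 5 called values reversed.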
